A study of Mus musculus with 144 samples.

Results

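The genes described here encode the proteins of the mitochondrial ribosome. They were taken as the rows of the deposited gene count table whose symbol starts with Mrpl or Mrps followed by a number, without pseudogenes. This gave 78 genes of 51912 in the table, 29 named Mrps for the small subunit and 49 named Mrpl for the large subunit, and 5 pseudogene rows were left out. The symbols Mrpl57, Mrpl58 and Mrps36 were in none of the lists by subunit and bacterial counterpart used below. Mrpl57 and Mrpl58 stand in a further list, of subunits with other names. Mrps36 is now known as a component of the oxoglutarate dehydrogenase complex.

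The mitochondrial ribosome translates the few proteins that mitochondrial DNA encodes, all of them core subunits of the respiratory chain and of ATP synthase. Its ribosomal RNAs are made in the mitochondrion, but every one of its proteins is encoded in the nucleus, translated on cytosolic ribosomes and imported. Some of these proteins descend from bacterial ribosomal proteins, and others have no bacterial counterpart and were added during the evolution of mitochondria. Liver is rich in mitochondria, and its fuel use changes between the fed and the fasted part of the day.

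RNA was from livers of male C57BL/6J mice, wild-type or Bmal1-/-, kept in a daily cycle of 12 h light and 12 h dark, with food always present; an age was not given in the sources used here. BMAL1, encoded by Arntl, is a transcription factor of the circadian clock. The libraries were made with QuantSeq, a kit that reads the 3′ end of polyadenylated RNA. They covered wild-type total RNA, wild-type RNA of nuclei pelleted through a sucrose cushion, wild-type polysomal RNA from sucrose gradients run with cycloheximide, and Bmal1-/- total RNA. Each of these 4 series had 36 libraries, with 6 libraries for every zeitgeber time (ZT, counted in hours from lights-on) of 2, 6, 10, 14, 18 and 22. The labels do not say that libraries of a group came from separate animals, so p-values measure the spread between these libraries.

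Total counts per library ran from 1662449 to 14281894 with a median of 6431391, and 4 libraries were under 3000000. The members together took 3301 to 46035 counts per library. Levels are given in CPM (counts scaled to a library total of 1000000). A 3′ kit counts 1 end per transcript, so CPM was not divided by gene length when genes were compared. Changes are log2 ratios with their standard error (SE) from edgeR's quasi-likelihood test. A gene is said to rise or fall where the Benjamini-Hochberg adjusted p over all genes tested was under 0.05. For gene levels these ratios use TMM factors, a further scaling between libraries that CPM leaves out. Levels, ranges and counts of libraries in CPM can therefore differ from the change. In Bmal1-/- RNA, Mrpl47 had a mean of 19.6 CPM in both genotypes and a change of -0.10. In wild-type total RNA a single library stood apart, replicate 4 at ZT2. It correlated at 0.911 with the mean of its 5 fellows, where the next lowest library of that series reached 0.962. Of the 78 members, 46 lay outside the range of the other 35 wild-type total libraries in it, 22 above and 24 below, against 13 in the library with the next most. It held 295 CPM of Mrpl34 and 21.3 CPM of Mrpl12, where the other libraries held 75.7 to 161 CPM and 91.2 to 130 CPM. Results that change without it are given both ways. In the other series the lowest correlation of this kind was 0.946 in Bmal1-/- total, 0.931 in nuclear and 0.903 in polysomal RNA. The value of 0.903 was that of polysomal replicate 1 at ZT22. Arntl stood at 11.5 CPM ± 2.98 (SD, n = 36) in the Bmal1-/- libraries, against 6.73 CPM ± 5.4 in wild-type total RNA. A 3′ count outside a deletion does not check the genotype. The clock genes Dbp and Nr1d1 had their highest wild-type means at ZT10 (97.6 CPM) and ZT6 (41.3 CPM). In Bmal1-/- total RNA their means at those times were 3.22 and 0.664 CPM. In bulk RNA, a change in the share of a cell type and a change in RNA per cell cannot be told apart.

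In wild-type total RNA the members summed to a median of 2729 CPM, with libraries from 2438 to 2994 CPM. The mean sum was 2742 CPM ± 133 (SD, n = 36) there and 2844 CPM ± 242 for Bmal1-/- livers. In nuclear RNA it was 2036 CPM ± 270, and in polysomal RNA 3827 CPM ± 697. The nuclear and total ranges overlapped (1389 to 2652 CPM and 2438 to 2994 CPM), as did the polysomal and total ranges (2526 to 5332 CPM for polysomal RNA). Over the day the mean of the sum in wild-type total RNA stayed between 2660 CPM at ZT6 and 2823 CPM at ZT14, with an SD of 146 and 128 CPM at those times. The members were far from equal in level. The highest in wild-type total RNA were Mrps21, at 119 CPM ± 20.1 (SD, n = 36), Mrpl34 at 114 CPM ± 37.3, and Mrpl12, the stalk protein that contacts translation factors, at 105 CPM ± 18. These 3 means differed by less than their SDs. The lowest were Mrps23 at 0.479 CPM ± 0.296, Mrps18b at 1.36 CPM ± 0.464 and Mrpl23 at 2.33 CPM ± 1.03. The median member of the 30 large-subunit proteins with a bacterial counterpart stood at 32.8 CPM and that of the 15 small-subunit proteins with one at 32.4 CPM. It stood at 29.9 CPM among the 19 large-subunit proteins without a counterpart and at 16.4 CPM among the 11 small-subunit proteins without one. Here and below these 2 lists hold Mrps18a and Mrps18b, in that order, although both are related to a bacterial protein. Another gene overlaps 25 of the members in RefSeq's annotation, among those named in the text Mrps2, Mrps6, Mrps9, Mrps18a, Mrps18b, Mrps23, Mrps25, Mrps27, Mrpl2, Mrpl14, Mrpl18, Mrpl21, Mrpl24, Mrpl33, Mrpl37, Mrpl48, Mrpl53 and Mrpl57, and some of their reads may belong to that gene.

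Loss of Bmal1 came with small changes of either sign. Of 77 members tested, 24 passed (31.2%), 10 higher and 14 lower in Bmal1-/- than in wild-type total RNA; of all genes tested, 44.2% passed. With all 4 series in 1 fit, 11 of 78 members passed (14.1%), 6 higher and 5 lower, against 32.0% of all genes. The median log2 change of the 77 in the comparison of these 2 series was -0.02, and that of all genes -0.00. Mrps23 was too low to be tested with these 2 series alone, and entered the fit of all 4 series only through its polysomal counts. No member's Bmal1-/- libraries lay wholly outside the wild-type range (0 of 77, and 0.0502% of all genes). Of 12082 genes tested, 21.7% were higher and 22.4% lower.

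Mrps12, a protein of the decoding centre whose bacterial counterpart is the site of streptomycin resistance, fell most. In wild-type total RNA it ran from 29.3 to 62.9 CPM with a median of 50.2 CPM, and in Bmal1-/- total RNA from 13.6 to 55.8 CPM with a median of 19.7 CPM. This was a log2 change of -0.98 (SE 0.12, adjusted p 4.38e-10), with lower means at all 6 times. The ranges overlapped, and 21 of 36 Bmal1-/- libraries lay below the lowest wild-type library. The lowest wild-type value was that of the library that stood apart; the other 35 ran from 39.1 to 62.9 CPM. The Bmal1-/- libraries were spread unevenly: 20 of them held 13.6 to 20.6 CPM and 16 held 26.9 to 55.8 CPM, with none between. Low and high libraries occurred at every time, for example 15.4 and 55.8 CPM at ZT6 and 13.6 and 47.1 CPM at ZT22. At ZT18 a single library held 50.1 CPM and the other 5 held 13.6 to 18.5 CPM. Replicate 1 ran from 26.9 to 55.8 CPM and replicate 4 from 15.7 to 33.3 CPM over the 6 times. The plot of Mrps12 by library shows this spread beside the narrower wild-type one.

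**Figure D1:**
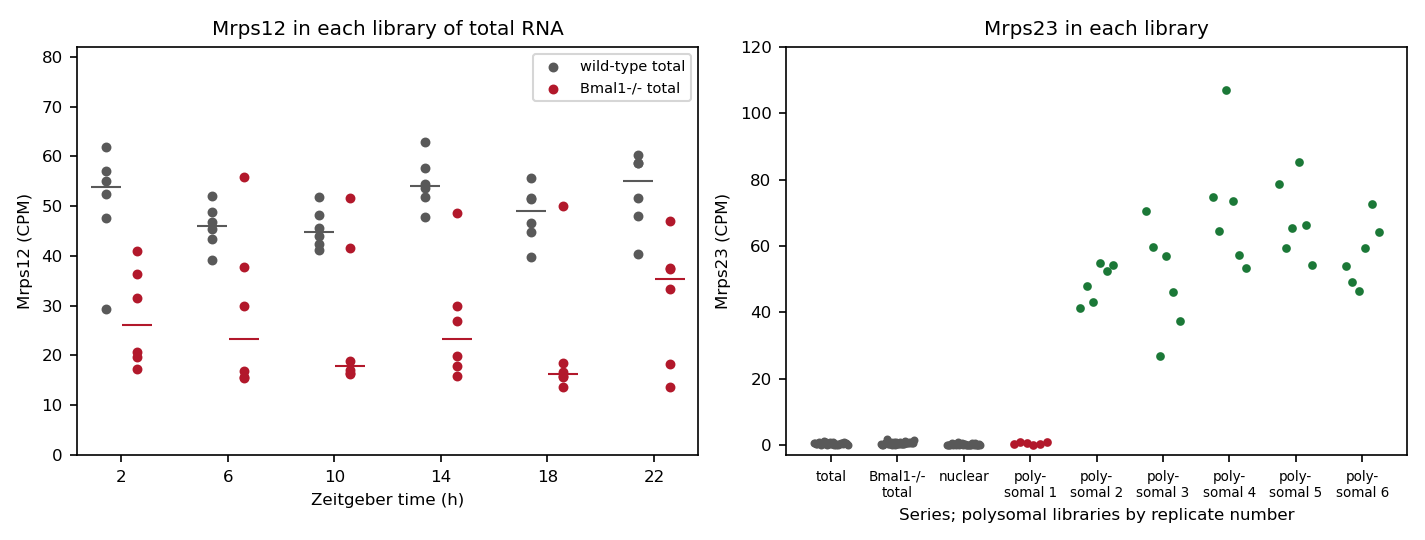
Left, Mrps12 in CPM (y axis) by zeitgeber time in h (x axis) for wild-type total RNA (grey) and Bmal1-/- total RNA (red); each point is 1 library and each dash the median of 6. Right, Mrps23 in CPM in every library of total, Bmal1-/- total and nuclear RNA, then of polysomal RNA by replicate number, 6 times each. Bmal1-/- libraries of Mrps12 ran from 13.6 to 55.8 CPM, and Mrps23 was at 26.7 to 107 CPM in polysomal replicates 2 to 6 and at no more than 1.93 CPM elsewhere.

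Mrps12 and Arntl both lie on chromosome 7, Mrps12 at chr7:28739641-28741821 on the minus strand and Arntl at chr7:113178471-113314126 (GRCm38.p6). Of the other members on this chromosome, Mrpl17 rose by 0.12 (SE 0.04, adjusted p 0.0212), and Mrpl23, Mrpl46, Mrpl48 and Mrps11 did not pass, with log2 changes of 0.11, -0.05, -0.02 and -0.10. Sars2, which encodes the mitochondrial seryl-tRNA synthetase, starts at chr7:28741957 and faces away from Mrps12. It ran from 1.23 to 5.34 CPM in wild-type and from 1.76 to 6.63 CPM in Bmal1-/- total RNA, and rose by 0.26 (SE 0.10, adjusted p 0.0257). The neighbours thus differed in direction. What sets the spread of Mrps12 was not tested.

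Among the other members that fell, Mrpl20 ran from 30.1 to 68.1 CPM in wild-type and from 25.1 to 44.5 CPM in Bmal1-/- total RNA, with medians of 43.5 and 36.9 CPM. Only 1 of the 36 Bmal1-/- libraries exceeded the wild-type median, and the change was -0.41 (SE 0.05, adjusted p 9.19e-10). Mrps21 ran from 93.1 to 210 CPM and from 76.4 to 134 CPM, and changed by -0.34 (SE 0.05, adjusted p 3.32e-08). The lowest wild-type value of Mrpl20 and the highest of Mrps21 were the library that stood apart. The other 35 ran from 34.1 CPM upwards in Mrpl20 and up to 142 CPM in Mrps21. Mrps36 had medians of 13.3 and 11.7 CPM and changed by -0.33 (SE 0.07, adjusted p 0.000148). Mrpl39 had medians of 39.3 and 38.7 CPM and fell by 0.25 (SE 0.09, adjusted p 0.0157), but without the wild-type library that stood apart its change was -0.18 and did not pass (adjusted p 0.0526). The ranges of both genotypes overlapped in each of these genes.

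Other members rose. Mrpl1, a protein of the mobile stalk next to the exit site, had a median of 21.6 CPM (12.8 to 34.5 CPM) in wild-type and of 29.9 CPM (17.1 to 39.7 CPM) in Bmal1-/- total RNA. This was a log2 change of 0.34 (SE 0.07, adjusted p 7.23e-05), with 34 of 36 Bmal1-/- libraries above the wild-type median in CPM. By that measure Mrps16, with a change of 0.00, had 24 such libraries. Mrpl14 rose by 0.24 (SE 0.06, adjusted p 0.000329), from a median of 70.3 to 87.8 CPM. Mrpl41 rose by 0.23 (SE 0.06, adjusted p 0.000574) and Mrpl33 by 0.20 (SE 0.05, adjusted p 0.00106). These 4 genes were higher at all 6 times, yet Mrpl14, Mrpl41 and Mrpl33 did not pass in replicates 1 to 3 alone (adjusted p 0.105, 0.323 and 0.312). Mrpl9 passed narrowly (0.20, SE 0.08, adjusted p 0.0493). Mrps18b, which sits at 1.36 CPM in wild-type total RNA, rose by 0.44 (SE 0.12, adjusted p 0.00157). Of all genes tested, 21.7% rose and 22.4% fell in Bmal1-/-. By subunit class, 7 of 30 large-subunit proteins with a bacterial counterpart rose and 3 fell. Of the 15 small-subunit proteins with one, 1 rose and 4 fell; of the 19 large-subunit proteins without one, 1 rose and 4 fell; of 10 such small-subunit proteins tested, 1 rose and 2 fell.

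Summed levels of markers of some liver cell types also had other medians in Bmal1-/- RNA. The summed level of 6 stellate cell markers had a median of 377 CPM (311 to 513) in Bmal1-/- and of 299 CPM (218 to 378) in wild-type total RNA. That of 5 cholangiocyte markers was 73.5 CPM (45.8 to 136) and 25.7 CPM (16.2 to 66.6), and that of 6 hepatocyte markers 65554 CPM (41866 to 115320) and 84941 CPM (42099 to 103681). Medians were close for 6 Kupffer cell markers, at 202 CPM in Bmal1-/- and 220 CPM in wild-type total RNA. They were close too for 6 sinusoidal endothelial cell markers, at 250 and 243 CPM. None of these markers was at 0 in all libraries, and their part in the members' changes was not tested.

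**Figure D2:**
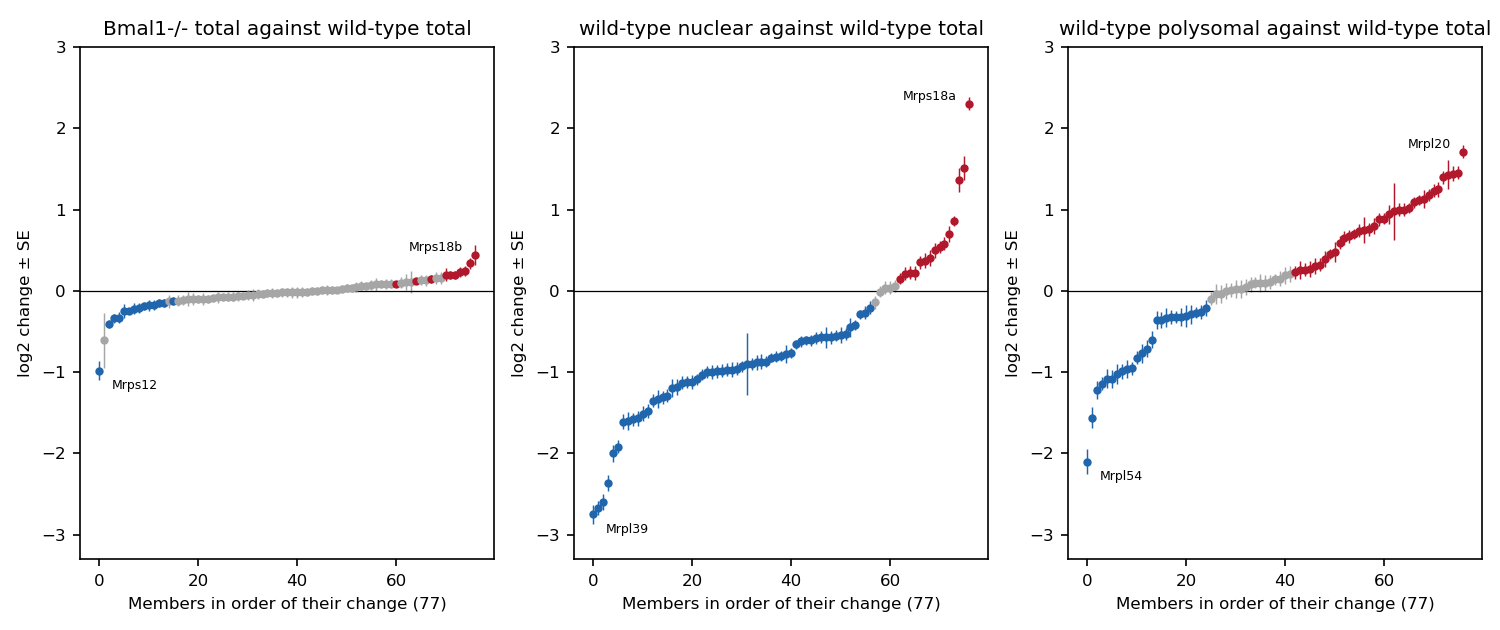
Log2 change with its SE (y axis) of the 77 members other than Mrps23, in order of their change (x axis), for Bmal1-/- total, nuclear and polysomal RNA, each against wild-type total RNA. Red and blue points passed the test as higher and lower and grey points did not; the change ran from -0.98 to 0.44 in Bmal1-/-, from -2.75 to 2.30 in nuclear and from -2.10 to 1.71 in polysomal RNA.

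Nuclear RNA held relatively less of most members. Of 77 tested, 72 passed (93.5%), 57 lower and 15 higher than in total RNA, where 83.8% of all genes passed, 42.1% lower and 41.6% higher. The median log2 change was -0.80 for the members and -0.01 for all genes. Of the 77 members, 25 passed at 2-fold or more lower (32.5%, against 18.2% of all genes) and 3 at 2-fold or more higher (3.90%, against 18%). The libraries of 13 of 77 members did not overlap with total RNA, 12 below and 1 above, and 7.06% of all genes did not overlap. All these values are shares of each fraction's own counts.

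Mrpl39, a large-subunit protein without bacterial counterpart, fell most, from a median of 39.3 CPM (22.1 to 92.7) in total to 6.31 CPM (1.20 to 13.5) in nuclear RNA, a log2 change of -2.75 (SE 0.12, adjusted p 4.32e-32). The highest total value of Mrpl39 was the library that stood apart, and the other 35 reached 46.4 CPM. Mrps18c went from 29.6 CPM (23.4 to 40.2) to 4.75 CPM (1.18 to 8.68), a change of -2.67 (SE 0.09, adjusted p 1.64e-38). Mrps22, a small-subunit protein in which mutations cause mitochondrial disease, went from 36.7 CPM (28.5 to 47.8) to 5.75 CPM (2.20 to 13.8), a change of -2.60 (SE 0.10, adjusted p 2.94e-37). In these 3 genes no nuclear library reached the lowest library of total RNA. The same held for Mrps30 (change -2.36, SE 0.10, adjusted p 4.17e-33) and Mrpl1 (change -2.0, SE 0.10, adjusted p 1.23e-30). The others without overlap below total RNA were Mrpl22, Mrpl36, Mrpl46, Mrpl47, Mrpl52, Mrpl53 and Mrps35.

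Mrps18a went the other way. It ran from 8.28 to 22.7 CPM in total RNA (median 14.4 CPM) and from 39.1 to 114 CPM in nuclear RNA (median 74.4 CPM), so that the ranges did not overlap, and its log2 change was 2.30 (SE 0.08, adjusted p 2.94e-37). The lowest total value was the library that stood apart, and the other 35 ran from 10.6 CPM upwards. In polysomal RNA Mrps18a ran from 9.40 to 37.0 CPM, where the change of 0.21 (SE 0.10) did not pass (adjusted p 0.0528). Mrps18a lies at chr17:46111004-46128908 and overlaps Rsph9, and strand use in the authors' counting is not given in the sources used here. Rsph9 itself was counted at 0.776 CPM ± 0.530 (SD, n = 36) in nuclear RNA, and from the stranded sites assigned to Mrps18a alone the change was 2.62. The 3 Mrps18 genes are paralogs of 1 bacterial protein: the product of Mrps18c sits at the bacterial position, that of Mrps18b elsewhere in the small subunit and that of Mrps18a in the large subunit. Their nuclear changes were -2.67, 1.51 (SE 0.15) and 2.30, in that order.

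Further rises were Mrpl38 (median 34.5 CPM in total and 66.8 CPM in nuclear RNA, change 0.86, SE 0.06, adjusted p 7.02e-22) and Mrps11 (8.06 and 13.3 CPM, change 0.70, SE 0.10, adjusted p 6.72e-10). Mrpl14 changed by 0.58 (SE 0.08) and Mrpl2, a protein next to the catalytic centre, by 0.54 (SE 0.07). Their ranges overlapped with those of total RNA. The gene that Mrpl14 overlaps is Tmem63b and that of Mrpl2 is Klc4. Mrps11 and Mrpl46 start head to head on chromosome 7. Mrpl46 went from a median of 23.6 CPM (17.0 to 34.2) to 9.69 CPM (3.59 to 16.5), a change of -1.31 (SE 0.08), while Mrps11 rose. In Bmal1-/- the differences of Mrpl46 and Mrps11 were -0.05 (SE 0.06) and -0.10 (SE 0.07), and neither passed. Across the 77 members, Spearman's rho between gene length and nuclear change was -0.00, as a description over genes that share libraries.

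Polysomal RNA held more of some members and less of others. Of the 77 members other than Mrps23, 60 passed (77.9%), 35 higher and 25 lower than in total RNA; of all genes tested 76.1% passed, 38.4% higher and 37.6% lower. The median log2 change was 0.14 for these 77 and 0.01 for all genes tested. Of the 77, 14 passed at 2-fold or more higher, against 10.5% of all genes, and 7 at 2-fold or more lower, against 15.7%. The split depended on the replicate: in polysomal replicate 1 alone 69 members passed, 76.8% of them higher, where 64.8% of all genes passed and 45.8% of these were higher. In all 6 replicates, 35 of the 60 members that passed were higher, Mrps23 left aside, as were 50.5% of all genes that passed. The libraries of 6 of 77 members did not overlap with total RNA, where 4.49% of all genes did not; Mrpl15, Mrpl20, Mrpl42, Mrps2 and Mrps12 lay above and Mrps22 below. The polysomal, nuclear and Bmal1-/- comparisons share the wild-type total libraries.

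Apart from Mrps23, Mrpl20 rose most, from a median of 43.5 CPM (30.1 to 68.1) in total to 158 CPM (83 to 248) in polysomal RNA, a change of 1.71 (SE 0.08, adjusted p 8.58e-31). Mrps12 went from 50.2 CPM to 134 CPM (71.1 to 228), a change of 1.4 (SE 0.08, adjusted p 4.81e-27). No polysomal library of these 2 genes overlapped with total RNA. Mrpl3, whose product reaches to the catalytic centre, had medians of 12.8 and 35.3 CPM (change 1.45, SE 0.08, adjusted p 1.99e-27), and 34 of its 36 polysomal libraries exceeded every total library. Mrpl34 had medians of 104 and 306 CPM (change 1.44, SE 0.09, adjusted p 4.07e-23). Mrpl4, which lines the exit tunnel, had medians of 21.6 and 52.4 CPM (change 1.25, SE 0.09, adjusted p 6.38e-20). The highest total libraries of Mrpl34 and Mrpl4, at 295 and 40.6 CPM, were both the library that stood apart.

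Mrpl54, a small protein without bacterial counterpart, fell most, from a median of 31.0 CPM (7.34 to 38.8) to 6.69 CPM (1.73 to 18.6), a change of -2.10 (SE 0.15, adjusted p 3.74e-20). Its lowest total value was again the library that stood apart; the other 35 ran from 19.8 CPM upwards and so lay above every polysomal library. In polysomal replicate 1 alone its change was -1.07, and without that replicate -2.45. Mrpl30 changed by -1.56 (SE 0.13, adjusted p 5.33e-18), Mrpl39 by -1.22 (SE 0.11, adjusted p 1.58e-15) and Mrpl13 by -1.08 (SE 0.12, adjusted p 1.21e-12). Mrps22 went from 36.7 CPM to 17.7 CPM (6.88 to 26.9), a change of -1.14 (SE 0.08, adjusted p 2.88e-22), with no overlap. Mrpl39 and Mrps22 were among the lowest in nuclear RNA too, at -2.75 and -2.60, whereas Mrps12 and Mrpl20 stood at 0.15 (SE 0.07, adjusted p 0.0367) and -0.55 (SE 0.07, adjusted p 1.71e-10) there. By class, 10 of 15 small-subunit proteins with a bacterial counterpart rose and 4 fell, and 14 of 30 such large-subunit proteins rose and 9 fell. Of the 19 large-subunit proteins without one, 6 rose and 9 fell. Of the 11 such small-subunit proteins, 6 rose and 3 fell. Mrps23 is among these 6, but it was chosen by its polysomal counts, so its rise is not a result. Of all genes, 38.4% rose and 37.6% fell.

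Proteins of the cytosolic ribosome, listed by symbol, were counted in the same libraries. Of 82 tested, 75 fell in polysomal RNA and 1 rose, with a median change of -1.40, against 0.14 for the members other than Mrps23. In nuclear RNA 65 fell and 11 rose (median -1.03), where 57 of 77 members fell and 15 rose (median -0.80). In Bmal1-/- total RNA 66 rose and 5 fell (median 0.33, against -0.02 for the members). Of all genes, 38.4% rose and 37.6% fell in polysomal RNA, 41.6% and 42.1% in nuclear and 21.7% and 22.4% in Bmal1-/- RNA. Markers of other tissues were present in some polysomal libraries: 5 pancreatic acinar markers summed to at most 2505 CPM and 4 lung epithelium markers to at most 955 CPM, with medians of 0.449 and 0.475 CPM. The sum of 4 erythroid markers had a median of 4496 CPM (1081 to 11221) in polysomal and of 1379 CPM (317 to 6350) in total RNA. Sftpb was the only one of these lung markers at 0 in all polysomal libraries. The part of such cells in the polysomal values was not tested.

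Polysomal replicate 1 differed from the other replicates, and Mrps23 differed most among the members. Mrps23 encodes a small-subunit protein without bacterial counterpart at chr11:88194106-88211507 on the plus strand. It held 0 to 1.22 CPM in wild-type total, 0 to 1.93 CPM in Bmal1-/- total and 0 to 0.892 CPM in nuclear RNA. In polysomal replicate 1 it held 0 to 1.06 CPM, or 17 counts in 6 libraries. In replicate 2 it ran from 41.3 to 54.9 CPM, in replicate 3 from 26.7 to 70.5 CPM and in replicate 4 from 53.4 to 107 CPM. In replicates 5 and 6 it ran from 54.4 to 85.2 CPM and from 46.3 to 72.8 CPM. The 30 libraries of replicates 2 to 6 thus had no overlap with any other library and held 110 to 840 counts each. Since Mrps23 was chosen for this difference it has no test. No site of the deposited filtered list was assigned to Mrps23, and no site of the unfiltered list lay within 5000 bp. Cuedc1, which overlaps its start, had 0 CPM in all of replicate 1 and 0 to 5.08 CPM in replicates 2 to 6.

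Of the other 77 members, 27 were higher in replicate 1 than in replicates 2 to 6 and 0 lower (35.1%), where 20.5% of all genes passed, 11.1% higher and 9.40% lower. The median difference was 0.35 for the members and -0.04 for all genes. Mrpl24 held 86.3 to 116 CPM (median 107) in replicate 1 and 11.5 to 69.8 CPM (median 40.8) in the others, a difference of 1.41 (SE 0.18, adjusted p 2.29e-07), and its ranges did not overlap. Mrpl30 differed by 1.21 (SE 0.22, adjusted p 6.31e-05), Mrpl13 by 1.05 (SE 0.22, adjusted p 0.000492), Mrpl14 by 1.02 (SE 0.21, adjusted p 0.000576) and Mrpl47 by 1.02 (SE 0.22, adjusted p 0.000852). Ranges of these 4 overlapped. Members that rose most in polysomes did not pass here: the difference was 0.27 (SE 0.16, adjusted p 0.26) for Mrpl20, 0.02 (SE 0.19) for Mrpl34, 0.00 (SE 0.16) for Mrpl3 and 0.05 (SE 0.17) for Mrps12. Of the cytosolic ribosomal proteins, 53 of 82 were higher and 0 lower in replicate 1 (median 0.93). The labels say nothing of how replicate 1 was made.

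The count of members with a daily rhythm in wild-type total RNA depended on a single library and on the fit. A cosine of 24 h passed for 6 of 77 members (7.79%), against 18.9% of all genes, and 20 members had an unadjusted p under 0.05 (31.6% of all genes). All 6 fitted peaks fell in the dark, as did the fitted peaks of 49 of the 77 members tested. Most of these 77 fits did not pass, and the share of all genes with a peak in the dark is not given. Without the library that stood apart, an alternative chosen after seeing the data, 13 members passed, these 6 among them, against 20.4% of all genes. More members also passed with a replicate block, as given in the closing section.

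Mrpl34 had the smallest p. Its median rose from 90.1 CPM (75.7 to 101) at ZT6 and 90.2 CPM (82.3 to 106) at ZT10 to 135 CPM (104 to 161) at ZT22, and the fitted peak was ZT22.0 where peak exceeded trough 1.70-fold (adjusted p 0.0011). ZT6 and ZT22 did not overlap. At ZT2 it ran from 99.8 to 295 CPM, where the top value is the library that stood apart; without that library the ratio was 1.59 and the adjusted p 6.89e-07. Mrpl36 had its lowest median, 31.0 CPM (24.6 to 44.8), at ZT10 and its highest, 44.8 CPM (37.9 to 47.6), at ZT22 (peak over trough 1.37, peak ZT22.0, adjusted p 0.00126). Mrpl4 went from 17.5 CPM (15.6 to 20) at ZT10 to 26.9 CPM (18.1 to 34.9) at ZT22 (ratio 1.49, peak ZT22.5, adjusted p 0.00566). In Mrpl36 and Mrpl4 those ranges overlapped.

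Mrps6 went from 18.3 CPM (15.9 to 22.1) at ZT10 to 24.4 CPM (19.5 to 28.0) at ZT18 (ratio 1.38, peak ZT19.2, adjusted p 0.00682). Mrpl20 went from 40.9 CPM (34.1 to 47.3) at ZT6 to 54.9 CPM (43.6 to 68.1) at ZT18 (ratio 1.35, peak ZT16.8, adjusted p 0.0150). Mrps22 had medians from 29.6 CPM (28.5 to 43.7) at ZT14 to 40.1 CPM (35.2 to 47.7) at ZT22 (ratio 1.3, peak ZT23.7, adjusted p 0.0151). Low and high times overlapped in all 3. The 7 members that passed only without the library that stood apart were Mrps21, Mrps27, Mrps36, Mrps35, Mrps9, Mrpl18 and Mrpl2, with ratios from 1.18 to 1.48. Of these, Mrps35, Mrps9 and Mrpl2 had fitted peaks in the light, at ZT9.64, ZT7.93 and ZT9.26.

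**Figure D3:**
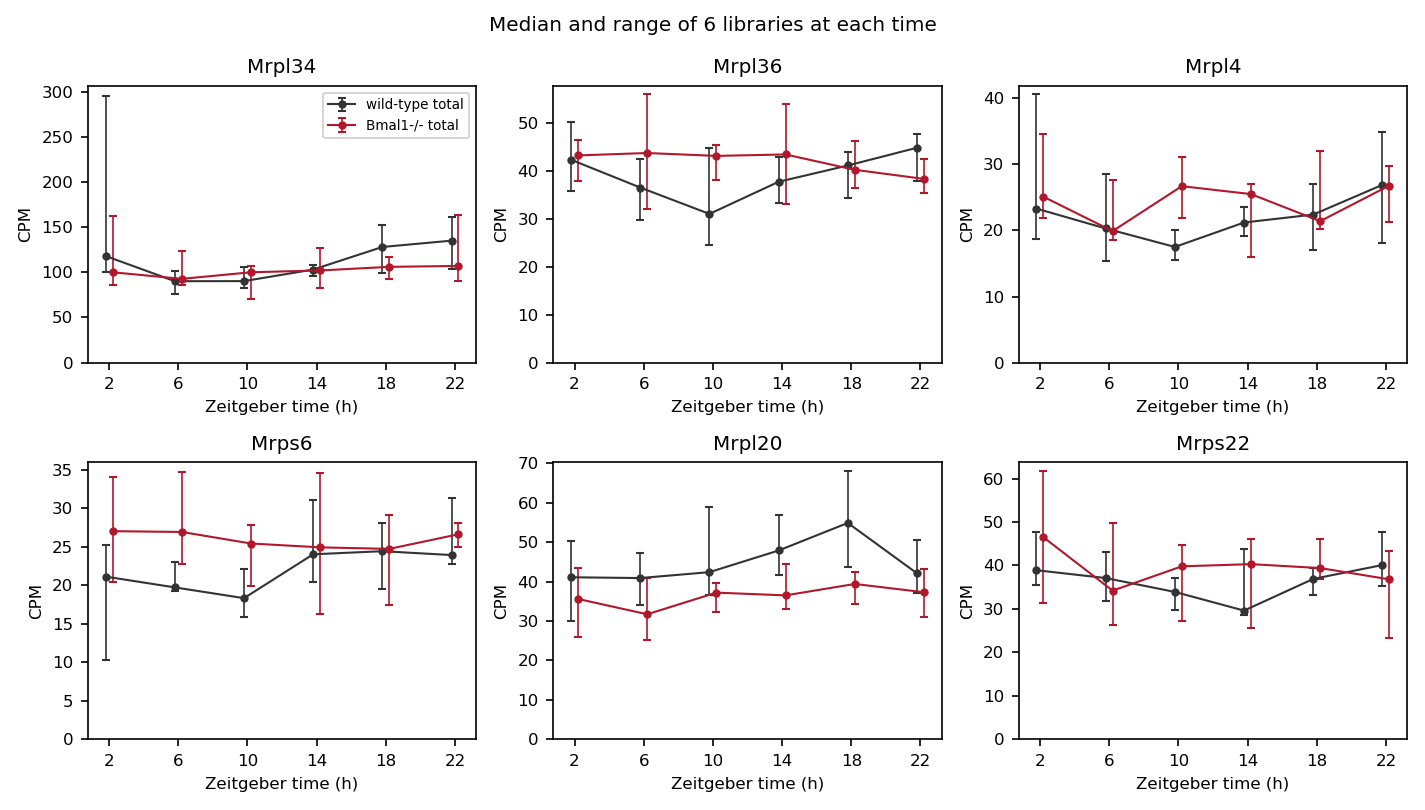
CPM (y axis) of the 6 members with a daily rhythm in wild-type total RNA by zeitgeber time in h (x axis), for wild-type (black) and Bmal1-/- total RNA (red); points are medians of 6 libraries and bars their lowest and highest value. Mrpl34 at ZT2 reaches 295 CPM in the wild-type library that stood apart, and Mrpl36 runs low at ZT10 in wild-type but not in Bmal1-/- RNA.

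In Bmal1-/- total RNA no member passed for rhythm by edgeR or by DESeq2, 4 had an unadjusted p under 0.05 (4.05% of all genes), and of all genes 0.00825% passed. The smallest p was that of Mrpl15 (ratio 1.29, peak ZT5.08, p 0.00435, adjusted p 1), then Mrpl16 (p 0.0239) and Mrps25 (p 0.0310). The difference between the genotypes' rhythms passed for 3 of 77 members (3.90%), against 5.11% of all genes, and 10 had an unadjusted p under 0.05 (17.4% of all genes). Mrpl36 held medians of 38.3 to 43.7 CPM over the day in Bmal1-/- RNA, and its rhythms differed with an adjusted p of 0.00497. Mrpl15 had medians of 50.6 CPM (38.2 to 60.8) at ZT2 and 61.8 CPM (53.6 to 69.5) at ZT14 in wild-type RNA, and of 79.8 CPM (71.2 to 89.5) at ZT6 and 63.2 CPM (56.2 to 81.0) at ZT18 in Bmal1-/- RNA. Its rhythms differed (adjusted p 0.0104) although neither series passed alone, with fitted peaks of ZT16.5 and ZT5.08. Mrps6 also differed (adjusted p 0.0324). Without the library that stood apart, 5 members passed, these 3 with Mrps21 (adjusted p 0.0213) and Mrpl34 (adjusted p 0.0392), against 5.24% of all genes. In replicates 1 to 3 or 4 to 6 alone, 0 passed by edgeR (6 and 7 at an unadjusted p under 0.05).

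In polysomal RNA 4 of 78 members had a rhythm (5.13%), against 7.90% of all genes, and 16 had an unadjusted p under 0.05 (21.8% of all genes). Mrpl36 went from a median of 72.7 CPM (47.0 to 119) at ZT10 to 103 CPM (91.2 to 114) at ZT22 (ratio 1.61, peak ZT19.1, adjusted p 0.0122). Mrpl37 had its fitted peak at ZT18.4 (ratio 1.49, adjusted p 0.0150), Mrpl20 at ZT17.5 (ratio 1.64, adjusted p 0.0191) and Mrpl34 at ZT18.5 (ratio 1.66, adjusted p 0.0425). These peaks too fell in the dark, as did those of 64 of the 78 members, most of which did not pass. Here too the share of all genes is not given. Without polysomal replicate 1 a single member passed; Mrpl36 and Mrpl37 had adjusted p of 0.0530 and 0.0697. In nuclear RNA 0 of 76 members passed by edgeR, where 5.99% of all genes passed, and 0 passed by DESeq2. An unadjusted p under 0.05 in edgeR was found for 3 (17.4% of all genes). With a replicate block more members passed in polysomal RNA, and Mrpl4 and Mrpl34 passed in nuclear RNA, as given in the closing section. The smallest nuclear p were those of Mrpl4 (ratio 1.4, peak ZT21.8, p 0.00944), Mrpl34 (ratio 1.48, peak ZT20.9, p 0.0320) and Mrpl40 (p 0.0387). A rhythm different from that of total RNA passed for 0 members in nuclear and 0 in polysomal RNA by edgeR (1 and 5 at an unadjusted p under 0.05, against 2.06% and 5.89% of all genes), and for 0 of all genes in both. The smallest p were 0.0329 for Mrps18a in nuclear and 0.00986 for Mrpl37 in polysomal RNA.

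Promoter motifs were searched in all tested members with an entry, and the sequence is printed for a few of them. RefSeq's table for GRCm38.p6 matched 69 of the 78 members; Mrpl4 and Mrpl15 were not among them. The E-box CACGTG, the sequence that CLOCK and BMAL1 bind, was searched from 250 bases before to 50 after the start. It was in 5 of the 68 member promoters of tested genes (7.35%), against 10.5% of 8510 promoters; it is its own reverse complement. Mrpl36 and Mrpl20 hold it, among the 5 rhythmic members with an entry. Of the 69 starts in that table, 47 equal the gene's start in RefSeq's gene table and the other 22 lie inside the gene's span. The start used for Mrpl36 is among the latter, 2506 bp into a gene at chr13:73328503-73332178, so its window lies within the gene. The 250 bases before the start are printed 5′ to 3′ for Mrpl36 and Mrpl20, chosen for their E-box. They are also printed for Mrpl34 with the largest rhythm, and for Mrps12, which fell most in Bmal1-/-. The rhythmic Mrps6 and Mrps22, which hold no E-box, are not printed. Capitals mark CACGTG in Mrpl36 and Mrpl20, the ETS core CCGGAAG in Mrpl34, and the Sp1 core GGGCGG, read on the other strand, in Mrps12.
Mrpl36 (chr13:73330759-73331008, plus strand): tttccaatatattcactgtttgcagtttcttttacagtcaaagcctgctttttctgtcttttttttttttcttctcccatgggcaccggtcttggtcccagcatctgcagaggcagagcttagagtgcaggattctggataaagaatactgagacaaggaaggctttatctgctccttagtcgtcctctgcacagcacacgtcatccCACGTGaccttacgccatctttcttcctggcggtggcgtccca
Mrpl20 (chr4:155802628-155802877, plus strand): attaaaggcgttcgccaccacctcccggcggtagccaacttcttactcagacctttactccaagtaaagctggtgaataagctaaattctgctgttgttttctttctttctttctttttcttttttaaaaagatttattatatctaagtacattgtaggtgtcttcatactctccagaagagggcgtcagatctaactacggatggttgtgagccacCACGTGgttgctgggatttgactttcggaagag
Mrpl34 (chr8:71464676-71464925, plus strand): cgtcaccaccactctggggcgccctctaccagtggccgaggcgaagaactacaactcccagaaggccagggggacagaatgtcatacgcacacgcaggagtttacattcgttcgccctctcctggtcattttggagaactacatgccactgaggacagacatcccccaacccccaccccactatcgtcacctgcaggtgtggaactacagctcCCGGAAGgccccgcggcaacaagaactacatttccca
Mrps12 (chr7:28741822-28742071, minus strand): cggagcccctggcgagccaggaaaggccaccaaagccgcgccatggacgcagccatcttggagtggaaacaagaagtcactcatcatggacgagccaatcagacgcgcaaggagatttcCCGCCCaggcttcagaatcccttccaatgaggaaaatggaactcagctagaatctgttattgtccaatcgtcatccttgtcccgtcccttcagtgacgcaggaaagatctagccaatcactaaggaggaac

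Other motifs were searched on both strands in the same windows. The ETS core CCGGAAG, bound by factors such as GABP, was in 24 of 68 member promoters (35.3%) and in 19.2% of all. ATGGCGG, the YY1 core, was in 13 (19.1%) and in 8.97% of all. TGCGCATG, the core of the motif of NRF1, was in 6 (8.82%) and in 4.16% of all. The Sp1 core GGGCGG was in 34 (50%) and 64.2%. Another gene started within 1000 bp on the opposite strand and facing away in 26 of 68 members (38.2%) and in 20.1% of all. These shares are descriptions; a match is not a bound site.

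More polyadenylation sites of the members passed between fractions than between genotypes. The 179 sites of the deposited filtered list that lay in 73 members were used, and a site's share is its part of the site counts of its gene. Against Bmal1-/-, 4 of 107 sites tested passed (3.74%), in 3 of 40 genes, 2 higher and 2 lower; of all sites 8.76% passed, 4.70% higher and 4.06% lower. In Mrpl1 the site at chr5:96213801-96213836, which lies far upstream of its last sites, had a median share of 25.6% (2.65 to 62.8) in wild-type and of 43.4% (18.6 to 79.4) in Bmal1-/- total RNA. The mean rose by 13.6 points (log2 0.48, SE 0.16, adjusted p 0.0362). The site at chr5:96264317-96264441 fell from a mean of 62.4% ± 15.3 (SD, n = 36) to 50.8% ± 12.7 (adjusted p 0.0499). In Mrpl48 the site at chr7:100565193-100565218 fell from 20.9% ± 8.28 to 11.2% ± 8.86 (adjusted p 0.00905), and in Mrps36 the one at chr13:100735989-100736044 rose from 33.0% ± 6.49 to 41.2% ± 8.75 (adjusted p 0.00326). The ranges overlapped in all 3 genes. In genes with at least 200 counts, 0 of 45 sites passed and 1 had an unadjusted p under 0.05.

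In nuclear RNA 88 of 105 sites passed (83.8%), in 37 of 39 genes, 39 higher and 49 lower; of all sites 78.8% passed, 35.7% higher and 43.1% lower. The last site of Mrps18c, chr5:100804423-100804473, went from a median share of 29.8% (18.3 to 61.7) in total to 74.2% (10 to 100) in nuclear RNA (log2 1.20, SE 0.10, adjusted p 7.09e-18). The nuclear shares of this gene rest on a mean of 18.5 counts per library. The last site of Mrps18a, chr17:46128871-46128921, went from 66.5% (45.5 to 100) to 98.0% (91.8 to 100), with 293 counts per nuclear library (log2 0.53, SE 0.04, adjusted p 1.60e-20). Its first site fell from a mean of 31.8% to 2.29%. In Mrpl13 an upstream site, chr15:55539120-55539141, went from a mean of 14% ± 4.71 to 41.6% ± 20.1 (adjusted p 2.25e-15) and in Mrps14 the site at chr1:160199780-160199822 from 17.3% ± 7.44 to 40.5% ± 20.1 (adjusted p 1.54e-10). In Mrpl32 the first site fell from 60.5% ± 10.7 to 37.3% ± 15.7 (adjusted p 4.58e-09). The most 3′ site gained in 20 of 39 members (51.3%) and lost in 12 (30.8%), against 42.7% and 34.9% of all genes.

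In polysomal RNA 83 of 110 sites passed (75.5%), in 36 of 42 genes, 41 higher and 42 lower; of all sites 70.5% passed, 33.4% higher and 37.1% lower. The first site of Mrps36, chr13:100736124-100736236, fell from a median of 61.9% (50.9 to 75.4) in total to 19.3% (0 to 56.9) in polysomal RNA (log2 -1.55, SE 0.13, adjusted p 3.72e-17). The last site of Mrpl3, chr9:105077419-105077490, rose from 57.2% (38.2 to 85.1) to 86.4% (63.1 to 100) (log2 0.58, SE 0.05, adjusted p 3.55e-17). The last site of Mrps18c rose here too, to 55.0% (20.8 to 82.3), beside 74.2% in nuclear RNA. In Mrpl55 the first site fell from 78.2% ± 6.13 to 54.1% ± 14.7 (adjusted p 6.45e-14), and in Mrpl21 the last site fell from 65.0% ± 7.39 to 41.4% ± 12.5 (adjusted p 2.35e-10). The most 3′ site gained in 23 of 42 members (54.8%) and lost in 8 (19.0%), against 51.9% and 20.2% of all genes. No site of a member had a rhythm of its share in wild-type total RNA by edgeR (0 of 111; 9 at an unadjusted p under 0.05, against 8.99% of all sites, of which 0.361% passed).

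**Figure D4:**
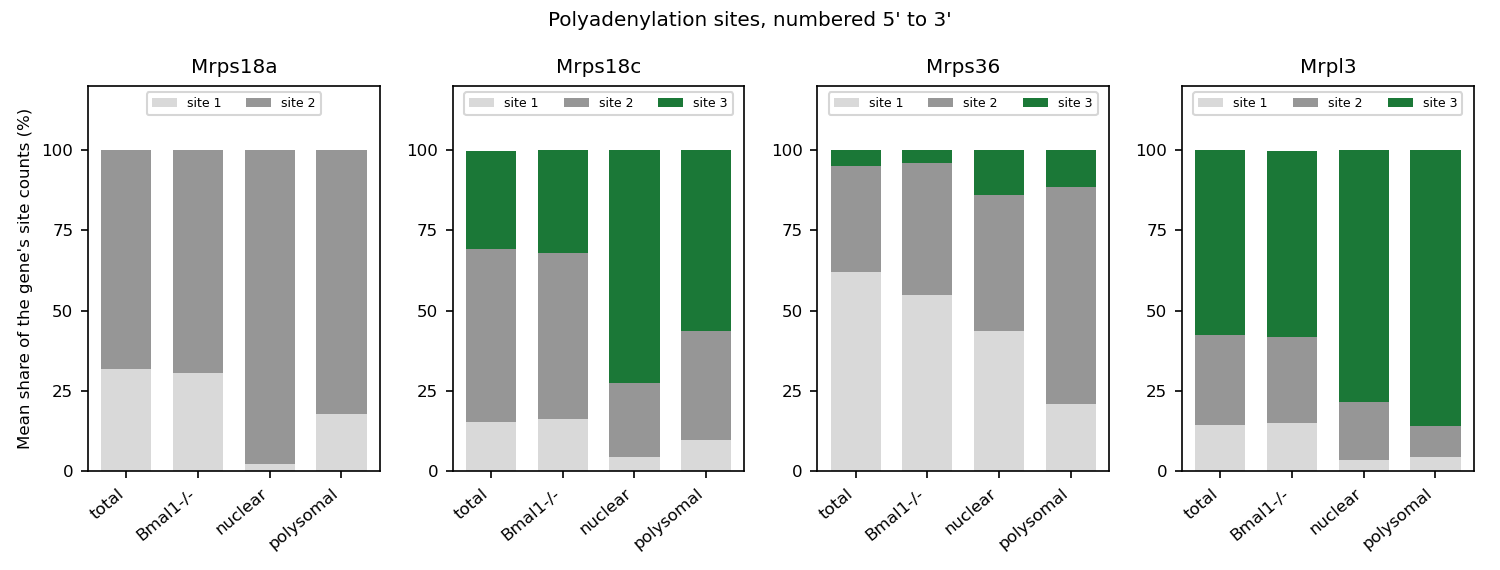
Mean share in percent (y axis) of the polyadenylation sites of Mrps18a, Mrps18c, Mrps36 and Mrpl3, stacked and numbered 5′ to 3′, in wild-type total, Bmal1-/- total, nuclear and polysomal RNA (x axis); each bar averages 36 libraries. The first site of Mrps18a shrinks from 31.8% in total to 2.29% in nuclear RNA, and the first site of Mrps36 from 62.1% to 21.0% in polysomal RNA.

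The machinery around the mitochondrial ribosome was counted beside it. Of 7 tested subunits with other names, which include the members Mrpl57 and Mrpl58, 1 rose and 1 fell in Bmal1-/-. The one that rose was Dap3, a GTP-binding small-subunit protein (change 0.24, SE 0.05, adjusted p 0.000212). Of these 7, 1 rose and 5 fell in nuclear RNA, and 1 rose and 1 fell in polysomal RNA. Of all genes, 21.7% rose and 22.4% fell in Bmal1-/-, 41.6% and 42.1% in nuclear and 38.4% and 37.6% in polysomal RNA. Of 15 translation factors 3 rose and 3 fell in Bmal1-/-, 1 rose and 13 fell in nuclear RNA, and 2 rose and 10 fell in polysomal RNA. Gfm1, an elongation factor, changed by -0.47 (SE 0.09) and Oxa1l, which inserts nascent proteins into the inner membrane, by 0.39 (SE 0.08) in Bmal1-/-. Slirp, a partner of Lrpprc in stabilising mitochondrial messenger RNA, went from 54.3 CPM ± 8.17 (SD, n = 36) to 4.94 CPM ± 1.95 in nuclear RNA, a change of -3.55 (SE 0.10, adjusted p 7.14e-44). Lrpprc changed by -1.62 (SE 0.08) there.

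Of 23 tested assembly factors 3 rose and 4 fell in Bmal1-/-; of 22 tested in nuclear RNA 9 rose and 11 fell, and of 23 tested in polysomal RNA 7 rose and 11 fell. Of 17 mitochondrial aminoacyl-tRNA synthetases 5 rose and 1 fell in Bmal1-/-, with Fars2, the phenylalanyl enzyme, going from 20.1 CPM ± 4.33 to 36.8 CPM ± 13.7 (change 0.77, SE 0.09, adjusted p 8.81e-11). In nuclear RNA 7 of 15 of these enzymes rose and 4 fell, with a median of 0.13 where the members stood at -0.80, and in polysomal RNA 5 of 17 rose and 7 fell. Of 10 genes of mitochondrial transcription and its regulators, 2 rose and 1 fell in Bmal1-/-, 3 rose and 5 fell in nuclear RNA, and 3 rose and 4 fell in polysomal RNA. Nrf1, a transcription factor of many such genes, rose in nuclear RNA by 2.25 (SE 0.10) and Tfam, which packages mitochondrial DNA, fell by 1.90 (SE 0.09). Ppargc1a, a coactivator, rose in Bmal1-/- by 0.52 (SE 0.16, adjusted p 0.00624). No list's difference from the members was tested.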

How the data were processed

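Polyadenylated RNA of 144 mouse liver libraries was analysed from the raw counts per gene and per polyadenylation site that the authors deposited, 1 column per library; 0 columns were without a sample. The submitters' processing notes name STAR 2.4.2a, HOMER, edgeR, mm10 and GRCm38.p5, with no role given; the counting settings are not given in the sources used here. The deposited normalized tables were not used. The members and the gene lists were chosen with earlier results of these data known.

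Python 3.11.15 and R 4.3.3 with edgeR 4.0.16 were used (TMM factors, robust quasi-likelihood F tests, Benjamini-Hochberg adjustment over all genes or sites tested, threshold 0.05), and DESeq2 1.42.0 as an alternative. A gene entered a fit where it averaged 10 counts or more in its libraries. Comparisons of series averaged the 6 times; rhythm was a cosine and sine of 24 h, and a rhythm difference its interaction with series. Filtered sites were assigned through RefSeq's GRCm38.p6 gene table (same strand, up to 1000 bp past the end), and 17% had a gene end within 25 bp (0.0719% once shifted by 5000 bp). Usage was tested on site counts with the log of the gene total plus 0.5 as offset, for sites with at least 5% of the counts of genes with at least 50 counts. The 360 pairs of libraries within groups held 0 identical pairs.

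Named were Mrps23, the Mrps18 genes, the 3 highest and 3 lowest members, up to 5 rises and 5 falls per comparison of series (mean of at least 50 counts, same direction at all 6 times), up to 8 rhythmic members or the 3 with the smallest p, and the widest site of up to 5 genes. Other members named for groups without overlap, for position or for a call of their own were chosen after their values were seen. Alternatives were other scaling, all genes, summed site counts, replicates 1 to 3 or 4 to 6, a replicate block, libraries of at least 3000000 counts, all series in 1 fit, and without polysomal replicate 1. The fits were tested on simulated data.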

Additional observations from a re-analysis of the deposited data

Results flagged for a closer look

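Of 60 groups of 6 libraries examined for a library far from the others (the summed level of the members in each group, and the rhythmic members in wild-type total RNA), 4 had one; chance gives about 1 in 20. In wild-type total RNA at ZT2, replicate 4 held 295 CPM of Mrpl34, where the next highest library held 118 CPM and the lowest 99.8 CPM. The same library held 40.6 CPM of Mrpl4, where the others held 18.7 to 25.7 CPM. In wild-type total RNA at ZT22, replicate 5 held 31.3 CPM of Mrps6, and the others 22.8 to 25.6 CPM. The members summed to 2715 CPM in Bmal1-/- total RNA at ZT18, replicate 1, and to 2856 to 2932 CPM in the other libraries of that group.

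The daily rhythm differed between wild-type and Bmal1-/- total RNA, by the interaction of series and time, for Mrpl36 (adjusted p 0.00497), Mrpl15 (adjusted p 0.0104) and Mrps6 (adjusted p 0.0324). These are edgeR values adjusted over 12082 genes.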

How the results depend on the processing

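Of 115 recomputed counts of members or sites, 94 stayed within 1.5 times the reported count. Of the named genes' values, 554 kept their side of the threshold, 37 lost it and 2 gained it. Where the reported or the alternative fit passed, 0 of the named genes' changes or daily peaks reversed. Rhythm differences were not examined for reversal. With all 4 series in 1 fit, 11 members differed in Bmal1-/-, where 32.0% of all genes passed. For most other fits in this paragraph the share of all genes is not given. Their counts show only how far the members' calls move. Rhythm in wild-type total RNA passed for 10 members from summed site counts, 10 by DESeq2, 3 in replicates 1 to 3, 1 in replicates 4 to 6 and 13 without the library that stood apart. Polysomal rhythm passed for 0 members in replicates 1 to 3 (11 at an unadjusted p under 0.05 in edgeR), 1 in replicates 4 to 6 and 1 without polysomal replicate 1. The rhythm difference of the genotypes passed for 0 in either set of 3 replicates (6 and 7 unadjusted in edgeR) and 5 without the library that stood apart. Site usage in Bmal1-/- passed for 9 sites in replicates 4 to 6 and 0 in genes of at least 200 counts (1 unadjusted), where 14 of 19 nuclear and 36 of 44 polysomal sites passed. The sets of 3 replicates and the limit of 200 counts test fewer libraries or genes by construction; the cause of the other changes was not tested.

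Replicate numbers are shared between series, but nothing says that they mark an animal or day. Deviations from the group means correlated between a library and the same-numbered wild-type total library of its time at a mean of 0.07 in Bmal1-/-, 0.30 in nuclear and -0.11 in polysomal RNA; 29 of 36 nuclear libraries correlated best with their own number, a hint from the data only. With a replicate block, rhythm passed for 14 members in wild-type total, 2 in nuclear (Mrpl4 and Mrpl34) and 13 in polysomal RNA. With that block, site usage in Bmal1-/- passed for 8 sites, and rhythm of site usage for 1 site. The share of all genes or sites in the block fits is not given, so these counts cannot be read against it.

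Depth limits the lowest members: Mrps23 held 0 to 10 counts per wild-type total library and 0 to 3 per nuclear library, and Mrps18b averaged 13.2 counts in the genotype comparison.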
